A study of Mus musculus with 2 samples.

Results

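A set of 10 genes that encode chromatin regulators or Mef2 transcription factors was followed exon by exon: Kdm1a, Phf21a, Ehmt1, Ehmt2, Wiz, Mbd5, Mef2a, Mef2c, Mef2d and Smarca2. They were chosen by name, with inclusion and expression values of the same libraries already known, out of 18715 annotated genes that hold an exon of the splicing database. Their values are therefore a description, and no test is attached to them. Every trio of the database inside a gene on its strand was taken (a middle exon with an upstream and a downstream neighbour), of the cassette class and of the constitutive class alike, if it carried at least 20 reads in each library. Of 270 trios in the 10 genes, 247 passed, and they held 183 of the 198 distinct middle exons, set against 113761 exons of all genes under the same minimum.

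The RNA came from N2A cells, a mouse neuroblastoma line, transfected with plasmids and collected 3 days later. The control library came from cells given a control shRNA (shControl) and the knockdown library from cells given an shRNA against Ptbp1 (shptbp1), the gene of polypyrimidine tract binding protein. The study asked which exons respond to this protein. There was 1 library per condition, so every difference below compares 2 libraries and has no replicate check, and the intervals cover counting error only, in reads that are not independent molecules.

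Kdm1a (LSD1) removes methyl groups from lysine 4 of histone H3 and works with Phf21a inside the CoREST repressor complex. Ehmt1 (GLP) and Ehmt2 (G9a) form the complex that methylates lysine 9 of histone H3, and the zinc finger protein Wiz is its partner. Mbd5 belongs to the methyl-CpG binding domain family, and Smarca2 (BRM) is an ATPase of the BAF chromatin remodelling complexes. Mef2a, Mef2c and Mef2d are MADS-box factors that act in muscle and in neurons, where their target genes respond to activity. Several of these genes have exons that are used differently in brain and other tissues, and PTBP1 represses many neural exons by binding pyrimidine-rich sequence near them.

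The Mef2 genes share a short alternative exon, often called the beta exon, which is shown here for the family with 30 bases of the upstream intron and 10 of the downstream one. Exon bases are in capitals, on the strand of the gene and in the mm9 (NCBIM37) assembly, at chr7:74389407-74389430 for Mef2a, chr13:83794203-83794226 for Mef2c and chr3:87965703-87965723 for Mef2d.
Mef2a 24-nt exon: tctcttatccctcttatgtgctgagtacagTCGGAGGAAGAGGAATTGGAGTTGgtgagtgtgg
Mef2c 24-nt exon: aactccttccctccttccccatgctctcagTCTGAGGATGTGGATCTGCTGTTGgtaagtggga
Mef2d 21-nt exon: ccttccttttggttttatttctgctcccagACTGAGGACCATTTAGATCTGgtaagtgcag
In a global alignment, 18 of 25 columns were identical between the Mef2a and Mef2c exons, and 14 of 25 between either of them and the Mef2d exon. All lengths are multiples of the codon, so the exon can be used or left out without changing the frame.

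The Mef2d beta exon had high inclusion in both libraries. Its PSI, the percent spliced in from the authors' model, was 88.8 in the control and 93.7 in the knockdown library, where 99.9 is the highest value given. In the control, 283 and 48 reads crossed the left and right inclusion junctions and 38 the skipping junction, and after knockdown these were 249, 44 and 20. From junction reads alone, inclusion was 81.3% (95% Wilson interval 75.4 to 86.1) and 88.0% (82.2 to 92.1), and the Newcombe interval of the difference ran from -0.85 to 13.9 points. The difference was thus not separable from counting error at this depth. Cufflinks isoforms placed the exon in 49.9% and 47.2% of depth, lower than PSI.

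The Mef2a beta exon was mostly skipped. PSI was 11.8 in the control and 20.4 after knockdown. Inclusion junctions had 21 and 6 reads and the skipping junction 167 in the control, and 31, 8 and 130 after knockdown. Junction inclusion was 7.48% (4.47 to 12.3) and 13.0% (8.56 to 19.4), with an interval of the difference from -0.994 to 12.6 points. The isoform estimates of Cufflinks put the exon elsewhere, in 57.7% and 54.6% of the depth of the isoforms that span it. The Mef2c beta exon could not be measured, because none of the 13 middle exons of Mef2c passed the minimum. Of its 21 trios, 19 had no read in either library, and the best-covered exon held 0 reads in the control and 2 in the knockdown library.

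Mef2a and Mef2d also carry a pair of neighbouring exons between the same flanking exons, of which transcripts usually hold either one. For Mef2d the pair is shown with 20 upstream and 6 downstream bases, exons in capitals, on the plus strand at chr3:87961956-87962093 and chr3:87962143-87962277, with 49 bases between them.
Mef2d 138-nt exon: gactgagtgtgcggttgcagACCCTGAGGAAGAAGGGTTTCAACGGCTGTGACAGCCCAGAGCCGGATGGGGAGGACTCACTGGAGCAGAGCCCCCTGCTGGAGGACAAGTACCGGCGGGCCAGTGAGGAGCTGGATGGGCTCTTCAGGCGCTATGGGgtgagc
Mef2d 135-nt exon: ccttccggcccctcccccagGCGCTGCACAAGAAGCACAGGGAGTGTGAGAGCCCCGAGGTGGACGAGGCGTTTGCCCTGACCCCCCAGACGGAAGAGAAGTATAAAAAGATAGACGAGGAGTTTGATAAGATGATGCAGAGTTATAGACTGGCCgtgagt
Of the mean junction reads of the pair, the 138-nt exon took 94.6% in the control (Wilson interval 90.7 to 96.9, from 201 against 11.5 reads) and 94.7% after knockdown (90.4 to 97.1, from 170 against 9.5). The difference was 0.119 points, with an interval from -4.78 to 4.73. A further 65 and 52 reads skipped both exons. The PSI of the model gave 65.6 and 68.3 for the 138-nt exon and 5.8 and 8.5 for the 135-nt exon, in trios that hold 1 exon of the pair each. Downstream in Mef2d, a 191-nt exon at chr3:87965113-87965303 had PSI of 75.1 and 99.9, but no skipping read in either library. Its other trio was given PSI of 0 in both libraries, also without a skipping read. Yet the inclusion junctions of that trio had 112 and 53 reads in the control and 88 and 41 after knockdown. The 307-nt exon of Mef2d had PSI of 93 and 95.6.

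In Mef2a the pair lies on the minus strand at chr7:74413155-74413286 (132 nt) and chr7:74412953-74413090 (138 nt). Here PSI and junction reads gave different pictures. For the 138-nt exon, PSI was 99.9 in the control and 79.3 after knockdown, and for the 132-nt exon 98.4 and 89.9. Without the model's correction the 138-nt exon had 84.3 and 78.3, and another trio of the 132-nt exon had PSI of 99.9 in both libraries. No skipping read was found for the 138-nt exon in either library, and 1 in each for the 132-nt exon. As a share of the pair, the 132-nt exon took 55.9% of junction reads in the control (49.7 to 61.9, from 140 against 110.5) and 56.3% after knockdown (49.2 to 63.1, from 107.5 against 83.5). The difference of 0.394 points had an interval from -8.9 to 9.62, so the choice between the exons was close to even in both libraries. Cufflinks, in contrast, placed the 132-nt exon in 51.4% and 72.1% of isoform depth.

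**Figure D1:**
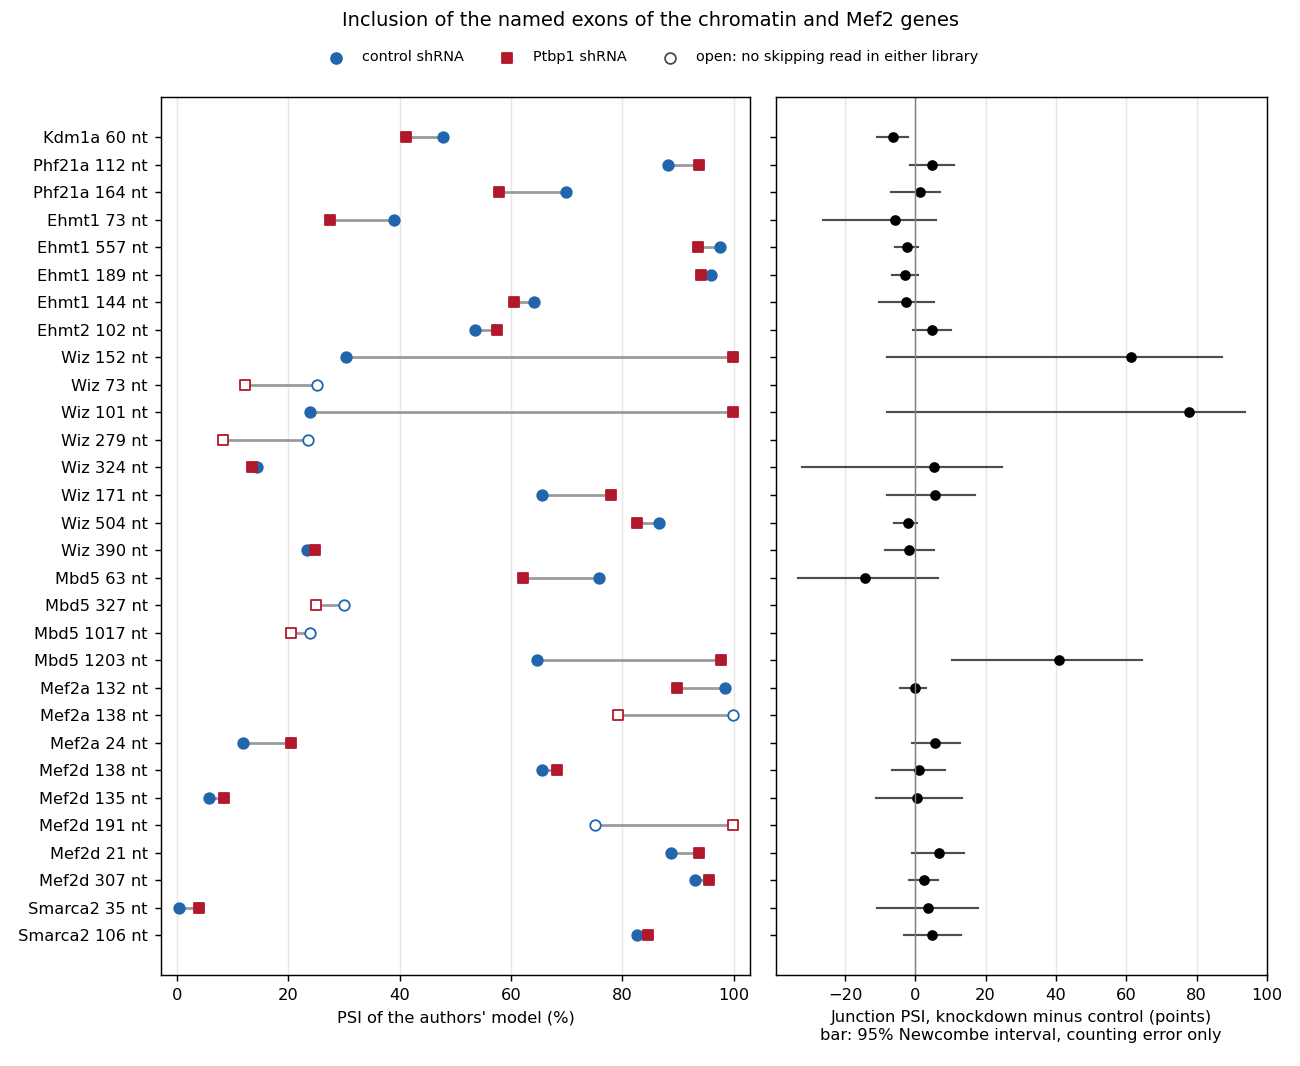
Left, PSI of the 30 named exons (horizontal axis, percent) in the control (circles) and the knockdown library (squares), with open symbols where neither library had a skipping read. Right, the difference in junction PSI with its 95% Newcombe interval for the exons with a skipping read; the intervals of the Kdm1a 60-nt exon (-10.8 to -2.06) and the Mbd5 1203-nt exon (10.4 to 64.5) leave out 0.

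Across the 9 genes with measured exons, 152 of 183 exons had a PSI above 95 in both libraries, 2 were below 5 in both, and 29 lay between 5 and 95 in at least 1 library. That is 15.8% of the member exons, against 7.75% of all exons. PSI was higher in the knockdown library by 5 points or more in 7 exons (3.83%; 2.1% of all exons) and lower in 8 (4.37%; 2.18% of all exons). Among the 29 exons of intermediate PSI alone, these were 24.1% higher and 27.6% lower, beside 27.1% and 28.2% of all exons of intermediate PSI. Of the 19 exons with a trio of the cassette class, 5 were higher (26.3%; 16% of all such exons) and 3 were lower (15.8%; 14.3%). The 3 include the Wiz exon of 73 nt, described by a constitutive-class trio with more reads. Its cassette trio differed by 3.1 points, so with cassette trios alone 2 were lower.

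Junction reads narrowed this set. In the trios described, 11 of the 15 exons past 5 points had a skipping read in at least 1 library and 4 had none (12.2% of all exons past 5 points had none). In 2 of the 15, the junction interval left out 0 in the direction of the PSI: the Mbd5 exon of 1203 nt, higher in the knockdown library, and the Kdm1a exon of 60 nt, lower in it. These were the only such intervals among all 183 member exons, 1 above 0 and 1 below. The interval does not cover use of a neighbouring exon in place of the exon, as for the Phf21a exon of 164 nt. Among all exons with junction reads, 0.907% had an interval above 0 and 1.69% one below 0. For 7 of the 29 intermediate exons, PSI and junction PSI of the control library differed by 25 points or more. Of these 7, 5 belonged to the constitutive class alone, and the same count was not made over all exons of intermediate PSI. Just inside 5 points lay the Phf21a exon of 112 nt (5.4), and just outside it the Mef2d exon of 21 nt (4.9) and the Mbd5 exon of 327 nt (-4.9). The lowest trio count that passed belonged to a Mbd5 exon with 22 and 21 reads. Outside the minimum lay the 13 Mef2c exons, a Phf21a exon with 14 and 20 reads and a Smarca2 exon with 13 and 8.

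Many of the intermediate exons had a length divisible into codons. These were 19 of the 29 (65.5%), beside 45.9% of the 183 member exons and 38.9% of all exons, and 24 of the 29 were coding. The share among all exons of intermediate PSI was not computed, so the 65.5% has no like background. Some of the 19 had no skipping read, as the Mbd5 exons of 327 and 1017 nt. Only 3 of the 183 exons were 30 nt or shorter.

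The Kdm1a exon gave the difference with the narrowest interval that left out 0. It is the alternative exon known as 2a, on the minus strand at chr4:136137955-136138014, and is shown for that reason, with its bases in capitals.
Kdm1a 60-nt exon: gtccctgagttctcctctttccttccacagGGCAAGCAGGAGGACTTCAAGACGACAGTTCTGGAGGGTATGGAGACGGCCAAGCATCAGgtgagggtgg
PSI was 47.8 in the control and 41.1 after knockdown, on 2773 and 2350 trio reads. Inclusion junctions held 564 and 300 reads and the skipping junction 580 in the control, and after knockdown 412, 250 and 582. Junction inclusion was 42.7% (39.7 to 45.8) and 36.3% (33.2 to 39.4), a difference of -6.43 points (-10.8 to -2.06). The left and right junctions were very unequal in both libraries, and this interval rests on their average. Intervals from each junction alone were not computed, so whether both leave out 0 was not tested. The known neural exon of Kdm1a, annotated at chr4:136119353-136119364 with a length of 12 nt, had no trio in the database and was in no Cufflinks isoform, and so was not measured here. The other 17 Kdm1a exons had PSI of 98.5 or more in both libraries.

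Phf21a, the CoREST subunit that binds unmodified histone H3, had 2 exons past 5 points. A noncoding exon of 112 nt at chr2:92055621-92055732 had PSI of 88.3 and 93.7. Its left, right and skipping junctions had 68, 215 and 16 reads in the control and 76, 206 and 8 after knockdown, with an interval of the difference from -1.39 to 11.1 points. For the 164-nt coding exon at chr2:92191858-92192021, PSI was 69.8 and 57.8, but only 1 skipping read was found, in the control library. Its junction PSI was 98.7% and 100%, opposite in direction to PSI, but this measure counts only reads that join the outer exons. A 23-nt exon at chr2:92191766-92191788 lies between the same flanking exons and had no skipping read. Its left and right junctions had 108 and 31 reads in the control and 105 and 47 after knockdown. Those of the 164-nt exon had 69 and 82, and then 39 and 49. Use of the 23-nt exon in place of the 164-nt exon is therefore not seen by junction PSI. Unscaled reads of the 164-nt exon were lower at both junctions after knockdown, the direction of its PSI. Those of the 23-nt exon were lower at the left junction and higher at the right. A share of this pair with an interval was not computed.

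The methyltransferase genes each had 1 cassette exon of intermediate PSI. The Ehmt2 exon of 102 nt is known as an alternative exon of G9a that is used more in neurons. PSI was 53.6 in the control and 57.4 after knockdown, a difference under 5 points. Left, right and skipping junctions had 291, 384 and 322 reads in the control and 314, 402 and 282 after knockdown. Junction inclusion of 51.2% (47.4 to 55.0) and 55.9% (52.1 to 59.7) gave an interval of the difference from -0.66 to 10.1 points. Cufflinks isoforms with the exon had a summed mean depth per base of 283 and 308, and the isoform without it 344 and 275. Isoforms with the exon thus held 45.1% of the depth in the control and 52.8% after knockdown, the same direction as PSI. Over the members, 14 named exons had isoforms with and without them in both libraries, and the isoform difference had the sign of the PSI difference in 3 and the opposite sign in 10. The Kdm1a exon, outside these 14, had an isoform share of 17.7% and 0%.

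The intermediate cassette exon of Ehmt1, 144 nt at chr2:24696156-24696299, had PSI of 64.1 and 60.6. Its junction reads were 162 and 229 against 110, and 178 and 186 against 114, with an interval of the difference from -10.2 to 5.19 points. A 73-nt exon near the start of the gene had PSI of 39.0 and 27.5, with no skipping read in the control and 1 after knockdown. It is a 67-nt exon with 6 more bases at its donor. The 67-nt form, between the same neighbours, had PSI of 99.9 and 99.1, and the 6 bases as a donor event 11.9 and 9.4. By junction reads the 73-nt exon stood at 100% and 94.3%, with an interval of the difference from -26.4 to 5.99 points. The Ehmt1 exons of 557 and 189 nt stayed at 93.6 or above, and the remaining exons of both genes had PSI of 95.6 or more.

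Wiz had the most exons of intermediate PSI, 8 of 14, and the fewest reads behind its largest differences. The 152-nt exon at chr17:32525549-32525700 had PSI of 30.4 and 99.9, on 49 and 38 trio reads. Its left, right and skipping junctions had 4, 1 and 4 reads in the control and 5, 0 and 0 after knockdown, and the interval of the difference ran from -8.05 to 87.2 points. The 101-nt exon had PSI of 23.8 and 99.9 from 4 inclusion and 7 skipping reads against 2 and 0 (-7.97 to 93.7), but of 21.7 and 28.8 without the model's correction. Both of these differences were within counting error. The 73-nt exon, which shares a splice site with the 101-nt exon, and the 279-nt exon had PSI differences of -12.9 and -15.2 points, without a skipping read in the trio described. Other trios of the 73-nt exon had up to 24 skipping reads in the control and 6 after knockdown, and differences of 3.1 and 57.8 points.

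Better covered were 2 cassette exons in the body of Wiz. The 390-nt exon at chr17:32496983-32497372 was included in a minority of transcripts, with PSI of 23.4 and 24.7. Left, right and skipping junctions had 151, 113 and 282 reads in the control and 87, 77 and 190 after knockdown, which gave 31.9% (27.6 to 36.5) and 30.1% (25 to 35.8). The difference lay between -8.66 and 5.41 points. The 171-nt exon at chr17:32499738-32499908 had PSI of 65.5 and 77.9, from 122, 5 and 12 such reads in the control and 78, 8 and 5 after knockdown. The left and right junctions of this exon were very unequal in both libraries, and the interval ran from -7.98 to 17 points. The remaining intermediate exons, of 504 and 324 nt, had PSI of 86.6 and 82.6 and of 14.3 and 13.4, although the 324-nt exon had 12 and 24 inclusion reads and 1 skipping read in the control.

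Mbd5 held the largest difference with an interval that left out 0. Its 1203-nt coding exon lies on the plus strand at chr2:49134101-49135303, and the sequence that precedes it is shown because it is the richest in pyrimidines among the 30 named exons. The 250 bases at chr2:49133851-49134100 are given with each TCTT and CTCTCT in capitals, searched on the strand of the gene with overlapping matches counted.
Mbd5 upstream 250 bases: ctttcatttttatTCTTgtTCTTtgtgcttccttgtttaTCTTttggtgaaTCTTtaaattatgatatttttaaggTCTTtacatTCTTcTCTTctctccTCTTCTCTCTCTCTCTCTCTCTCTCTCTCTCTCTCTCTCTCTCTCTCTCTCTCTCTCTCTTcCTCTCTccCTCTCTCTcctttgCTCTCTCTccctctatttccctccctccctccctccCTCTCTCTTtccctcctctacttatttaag
This window held 10 matches of TCTT and 33 of CTCTCT, most of them inside a single run of alternating C and T. Of its overlapping triplets, 73.0% were made of pyrimidines alone, against a median of 18.5% over all exons. The exon had PSI of 64.6 in the control and 97.8 after knockdown, on 209 and 339 trio reads. Left, right and skipping junctions had 7, 9 and 7 reads in the control and 13, 19 and 1 after knockdown. Junction inclusion of 53.3% (30.1 to 75.2) and 94.1% (73 to 99) gave a difference between 10.4 and 64.5 points, wide because few reads crossed these junctions. The only Cufflinks isoform that spans the exon held it in each library.

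A noncoding Mbd5 exon of 63 nt at chr2:48942110-48942172 had a difference of the opposite sign, with PSI of 75.9 and 62.2. Its junction reads were 36 and 20 against 14, and 26 and 18 against 20, with an interval from -33.4 to 6.49 points. Exons of 327 and 1017 nt share their start at chr2:49127561, had PSI between 20.5 and 29.9 in both libraries, and had no skipping read.

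For comparison, the 250 bases upstream of the Kdm1a exon, chr4:136138015-136138264 on the minus strand, are shown in the same way.
Kdm1a upstream 250 bases: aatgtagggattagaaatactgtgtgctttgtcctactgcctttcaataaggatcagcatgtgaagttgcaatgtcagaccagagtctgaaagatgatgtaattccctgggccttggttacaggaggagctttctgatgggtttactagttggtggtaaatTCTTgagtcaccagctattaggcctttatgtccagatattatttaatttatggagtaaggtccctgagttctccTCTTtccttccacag
They held 2 TCTT and no CTCTCT, and 19.0% of their triplets were made of pyrimidines, close to the median of all exons. In the 100 bases next to the exon, which held both TCTT, the share was 27.6% against a median of 21.4%. The difference in PSI had the opposite sign to that of the Mbd5 exon.

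Taken as a group, the members had sequence in the 250 bases upstream close to that of all exons. Triplets made of C and T alone made up a median of 19.8% of the 250 bases upstream of the 29 intermediate exons, of 19.8% for the other member exons and of 18.5% for all 113619 exons on the reference chromosomes. TCTT was present upstream of 86.2% of the intermediate exons and of 84.4% of all exons, and CTCTCT, which does not overlap TCTT except at its ends, of 17.2% and 16.3%. Next in pyrimidine content after Mbd5 were the Smarca2 exon of 35 nt (44.4%), with a PSI difference of 3.6 points, and the Phf21a exon of 164 nt (41.5%), with a difference of -12 points. The beta exons of Mef2a and Mef2d stood at 15.7% and 12.5%, below the median of all exons. In the 100 bases upstream they stood at 23.5% and 22.4%, above the median of all exons there, 21.4%. A match is a stretch of letters and was not measured as a binding site.

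**Figure D2:**
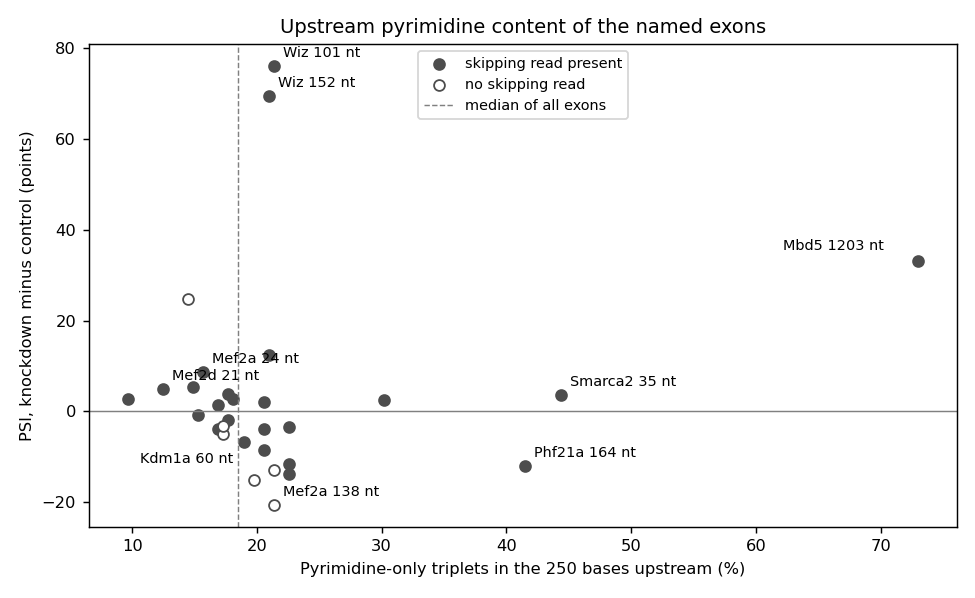
Change in PSI (vertical axis, points) of the 30 named exons against the percent of pyrimidine-only triplets in the 250 bases upstream (horizontal axis); open circles have no skipping read in either library and the dashed line is the median of all exons, 18.5%. The Mbd5 1203-nt exon stands alone at 73.0%, while the 2 Wiz exons with the largest differences lie near 21%.

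Reads along Smarca2 were uneven, with most of them at the 3′ end of the gene. The 3 last middle exons, at chr19:26845998-26850733, carried a median of 1760 reads per 100 bases in the control (range 1360 to 2110) and 2120 after knockdown (1370 to 2210). The 29 coding middle exons upstream carried 129 (10.9 to 275) and 138 (14.8 to 278). The order was the same in both libraries and the groups of exons did not overlap. Scaled to library totals, the 3 last exons were higher in the knockdown library by 0.48 on the log2 scale and the upstream exons by 0.43, so the 2 parts of the gene moved by about the same amount. Cufflinks assembled a transcript of 4 exons over this end of the gene in both libraries, with a mean depth per base of 327 and 700, beside 58.1 and 61.2 for the full-length RefSeq isoform of 33 exons.

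**Figure D3:**
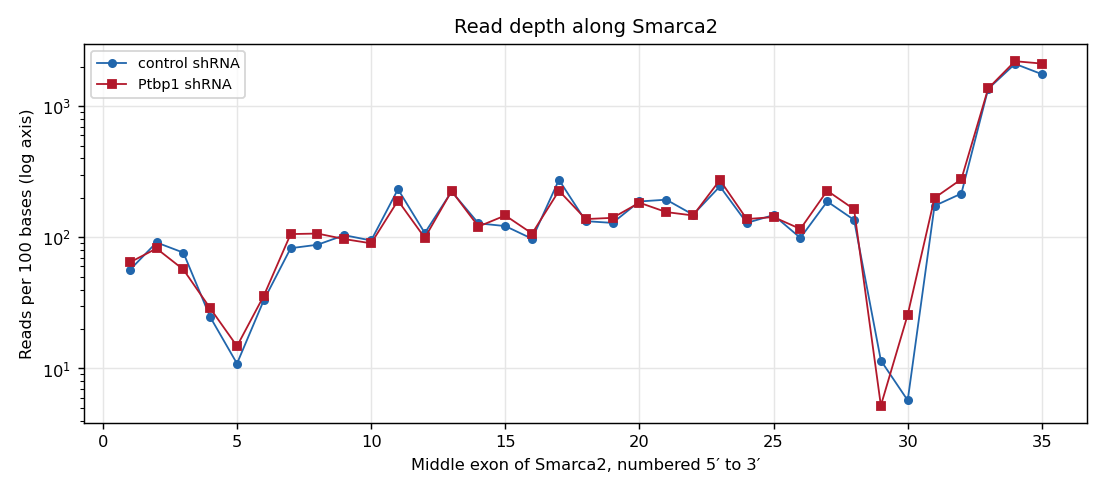
Reads per 100 bases (vertical log axis) of the 35 middle exons of Smarca2, numbered 5′ to 3′, in the control (circles) and the knockdown library (squares). The last 3 exons lie between 1360 and 2210 in both libraries, above every upstream exon.

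The noncoding Smarca2 exon of 35 nt, at chr19:26825612-26825646 on the plus strand, held few reads, 2 in the control and 9 after knockdown. It is shown with its bases in capitals because its upstream window was the second richest in pyrimidines.
Smarca2 35-nt exon: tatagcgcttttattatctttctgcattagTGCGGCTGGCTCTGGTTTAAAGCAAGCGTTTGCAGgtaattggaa
PSI was 0.3 in the control and 3.9 after knockdown. The upstream neighbour in its trio, at chr19:26824342-26824437, was itself under the minimum as a middle exon, with 13 and 8 reads. PSI and junction reads thus describe only transcripts that hold this neighbour. In the control, no read included the exon and 23 skipped it, and after knockdown 1 read lay on each inclusion junction and 27 on the skipping junction. The upper Wilson limits were 14.3% and 17.7%, and the interval of the difference, from -11 to 17.7 points, allowed a change in either direction. This exon belongs to a RefSeq isoform of 9 exons to which Cufflinks gave a mean depth of 243 in the control and 0 after knockdown, so the isoform estimate went against the junction reads. The 106-nt exon at chr19:26845428-26845533, just upstream of the well-covered end, had PSI of 82.6 and 84.6.

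The levels of the genes themselves are given per length, as reads per kilobase of middle exon scaled to all middle-exon reads of the library (in RPKM units). Kdm1a was highest, at 178 in the control and 185 in the knockdown library, followed by Ehmt2 with 65.0 and 80.1 and Ehmt1 with 31.1 and 34. Mef2d (23.9 and 24), Wiz (20.1 and 18.9), Phf21a (18.1 and 22.1), Mef2a (16.1 and 16.5) and Smarca2 (13.4 and 18.5) lay close together. For Smarca2, the 3 last middle exons held 6705 of 11785 such reads in the control and 7367 of 12774 after knockdown. Its value is therefore above the level of the rest of the gene. Mbd5 was low, at 3.27 and 4.86, and Mef2c was at 0 in both. Without replicates, the order of the 5 genes between 13.4 and 23.9 has no error to be read against.

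Gene expression was compared in 3 ways, because the isoform estimates shifted depth between RefSeq and assembled transcripts. RefSeq isoforms alone put 2 members past 1.5-fold lower, Smarca2 (log2 ratio of -0.89) and Phf21a (-0.85), and none past 1.5-fold higher. Over all 10010 genes compared this way, 10.7% were lower and 18.2% higher by more than that. With assembled isoforms of the same locus added, both genes turned positive, to 0.54 and 0.32, and by middle-exon reads they stood at 0.46 (counting interval 0.42 to 0.50) and 0.28 (0.24 to 0.33). The FPKM that Cufflinks gives per gene, scaled to the library median, stood at -0.59 for Phf21a and at 0.54 for Smarca2, so for Phf21a the direction differed between measures of the whole gene. Mef2d showed a similar spread, with -0.44 from RefSeq isoforms, 1.00 from the locus and 0.01 (-0.04 to 0.06) from middle exons. The only RefSeq isoform of Mef2a was listed at 0 in both libraries, while assembled isoforms held all of its depth.

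By middle-exon reads, no member passed 1.5-fold, a threshold passed upward by 15.9% and downward by 1.32% of 10409 genes. Mbd5 had the largest ratio, 0.57 (0.51 to 0.64), from 3591 and 4204 reads, and Wiz the lowest, -0.09 (-0.13 to -0.05), although Wiz stood at 0.44 by RefSeq isoforms. Kdm1a stood at 0.05, Mef2a at 0.03, Ehmt1 at 0.13 and Ehmt2 at 0.30. The median of all genes was 0.16 on this scale, so relative to it Mbd5 was at 0.42, Smarca2 at 0.31, Kdm1a at -0.10 and Wiz at -0.24. A read that crosses several exons is counted on each, so these intervals are narrower than the true counting error.

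**Figure D4:**
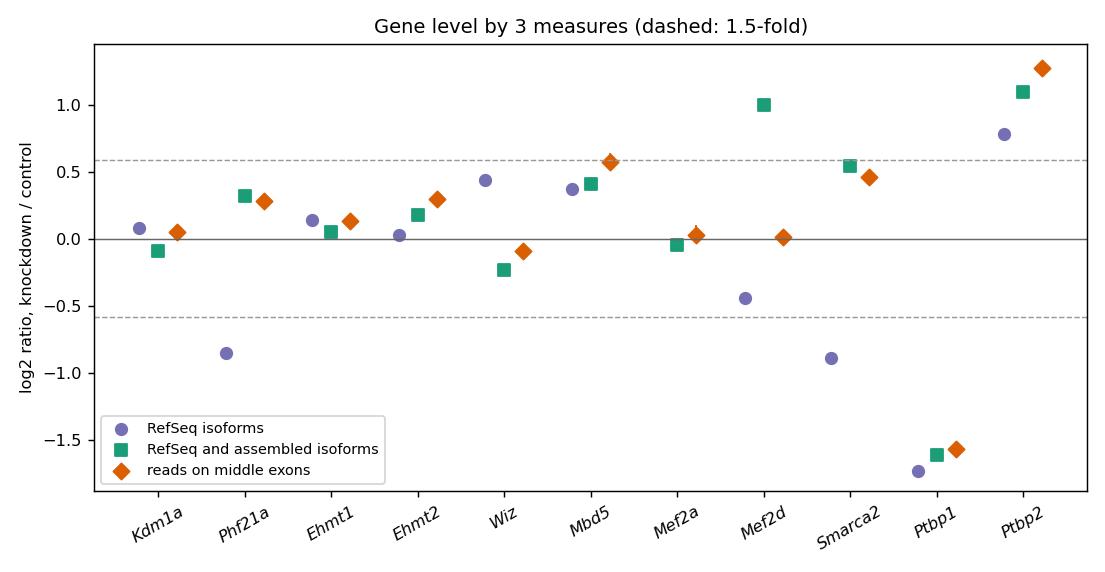
Log2 ratio of knockdown over control (vertical axis) for 9 members, Ptbp1 and Ptbp2 by RefSeq isoforms (circles), RefSeq and assembled isoforms (squares) and reads on middle exons (diamonds, with counting intervals); dashed lines mark 1.5-fold. The members lie between -0.09 and 0.57 by middle-exon reads, while Phf21a, Mef2d, Smarca2, Wiz, Kdm1a and Mef2a change sign between measures.

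The knockdown was checked on its target. Ptbp1 had 438 ppm (scaled to the library total of isoform bases) from RefSeq isoforms in the control and 132 after knockdown, a log2 ratio of -1.73, and 93456 and 24777 reads on middle exons (-1.57). Its neural paralog Ptbp2 had 47.5 and 81.6 ppm (0.78), and 1.27 by middle-exon reads. Of 16 neuroblastoma and neuron markers, 12 had at least 100 middle-exon reads in both libraries, among them Tubb3, Prph, Uchl1 and the noradrenergic factor Phox2a, while Nefl and Nefm were near 0. The summed level of the list was 2840 ppm of middle-exon reads in the control and 3960 after knockdown. Fibroblast markers summed to 3.69 and 9.07, glial markers to 2.37 and 2.02, muscle markers to 0.903 and 2.09 and leukocyte markers to 0.764 and 0.531, with Lum, Aqp4, Sox10, Myod1, Myog, Ptprc, Aif1 and Cd3e at 0 in both. The trios behind the member exons held a median of 1041 and 918 reads. In bulk RNA, fewer cells of a type and less RNA per cell cannot be told apart.

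The complexes in which the members work were followed through 59 partner genes in 5 lists, chosen with results of these data known. By RefSeq isoforms, 18.2% of all genes were higher and 10.7% lower by more than 1.5-fold. On this measure, CoREST partners had 1 gene higher and 2 lower of 9 compared. Genes of histone H3 lysine 9 methylation had 2 and 3 of 9, and the MBD family and readers 0 and 1 of 7. Mef2 partners had 1 and 2 of 10, and BAF subunits 4 and 2 of 16. The genes that passed it by RefSeq isoforms often differed by middle-exon reads, as Rcor1, a CoREST scaffold, with -1.80 and 0.40, and Zfp217, with 1.27 and 0.37. Among the lysine 9 genes, Zfp644, a partner of Ehmt2 and Wiz, had 1.59 and 0.32, the methyltransferase Suv39h1 -0.63 and -0.08, and Cbx5 (HP1 alpha) -0.62 and 0.15. Among the Mef2 partners, the deacetylase Hdac9 had -1.65 and 0.05 and the coactivator Ncoa2 -0.80 and -0.12. Among the BAF subunits, Smarce1 had 1.24 and -0.20, Arid1b -0.94 and 0.14, and Smarcc1 -0.82 and -0.37. By middle-exon reads no CoREST partner and no gene of lysine 9 methylation passed 1.5-fold, with medians of 0.34 and 0.15 against 0.16 for all genes. Rcor2, another CoREST scaffold, stood at -0.33, from 26271 and 16421 reads, and at -0.93 by RefSeq isoforms. Cdyl, a reader of histone methylation, stood at -0.45 and -0.95, and relative to the median of all genes, at -0.61, it passed 1.5-fold, which 3.55% of genes did downward.

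In the MBD family, Mbd2, a reader of methylated DNA, was lower by all 3 measures. Its middle-exon ratio was -0.62 (-0.67 to -0.57) from 10662 and 5467 reads, and both isoform measures gave -0.74. Mbd6, the closest relative of Mbd5, was at 0.65 by middle-exon reads and at 0.32 by RefSeq isoforms. Among the Mef2 partners, Mef2b had 901 and 1477 middle-exon reads, a ratio of 1.06 (0.94 to 1.18). It shares exons with an overlapping gene on the same strand, 2310045N01Rik, so these reads may belong to either gene.

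Among the BAF subunits, 6 of 19 were higher by more than 1.5-fold by middle-exon reads and none were lower, against 15.9% and 1.32% of all genes. These were Smarcd3 (1.37, from 284 and 579 reads, at a locus that overlaps Chpf2 on the other strand), Actl6b (1.05, from 3099 and 5068, and 2.51 by RefSeq isoforms), Dpf1 (0.78), Ss18l1 (0.75), Smarcc2 (0.64) and Dpf3 (0.62). Actl6b, Dpf1, Dpf3 and Ss18l1 are known as subunits of the neuronal BAF complex. Relative to the median of all genes, Smarcd3, Actl6b, Dpf1 and Ss18l1 remained past 1.5-fold, a level passed upward by 10% of genes. Their relatives in proliferating cells did not pass it, with Actl6a at -0.40, Dpf2 at -0.19 and Ss18 at -0.16 on this scale. Of the other Smarcd genes, Smarcd1 stood at -0.11 and Smarcd2 at -0.10. Without this scaling, the list had a median of 0.05, below the 0.16 of all genes. The neuron marker list was also higher in sum after knockdown, and its part in these values was not tested. Of its 12 genes with enough reads, 4 passed 1.5-fold upward and none downward. Prph, Uchl1 and Dbh made up most of the difference in its sum, while Stmn2 stood at -0.42, Tubb3 at -0.07 and Chga at -0.04.

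**Figure D5:**
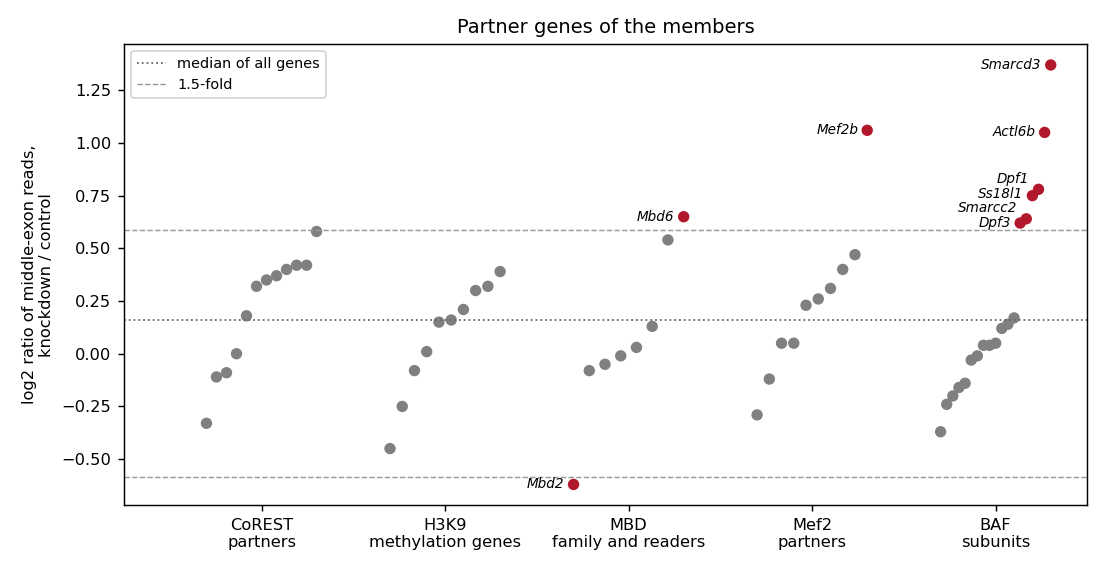
Log2 ratio of middle-exon reads, knockdown over control (vertical axis), for the partner genes of the 5 lists, each point a gene; red points are past 1.5-fold (dashed lines) and the dotted line is the median of all genes, 0.16. All 6 labelled BAF subunits lie between 0.62 and 1.37, and Mbd2, at -0.62, is the only gene below the lower line.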

How the data were processed

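Poly(A) RNA-seq libraries of N2A cells (1 per condition, stranded, paired reads of 100 bases) were processed by the authors. Per the submitters' processing notes, CASAVA, TopHat and Cufflinks were used with mm9, with versions not given in the sources used here. With SpliceTrap the authors deposited, for each exon trio, the fraction of inclusion with and without its model's correction, the count of reads on each junction, and the coverage signal in reads per 100 bases. From Cufflinks the authors deposited FPKM and mean depth per base for genes and isoforms, and transcript structures in which only positions were read. The gene FPKM was used in an alternative alone, since assembly was done separately in each library. Confidence bounds of the authors were not used.

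PSI was the corrected fraction times 100. Trio reads were coverage times summed exon length over 100. Of several trios of an exon, that with most reads summed over the libraries was described. Junction PSI divided the averaged reads of the left and right inclusion junctions by this average plus the skipping reads, with 95% Wilson and Newcombe intervals. Gene levels were isoform depth times length, in ppm of the library total, summed over RefSeq isoforms, of which 97.5% matched a symbol. Added after seeing the data were levels from reads on middle exons, scaled to 164959069 and 129920886 such reads, and exons with a skipping read. Genes with under 100 reads in either library were left out of ratios. A difference of 5 points or 1.5-fold was described, with no test. Sequences came from NCBIM37, where 99.7% of exons followed AG and 98.8% preceded GT.

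The members and gene lists were chosen with earlier results of these data known. Named were all members, their exons with PSI of 5 to 95 or a change of 5 points, the Mbd5 and Smarca2 exons that the study lists, and partner genes past 1.5-fold, up to 4 per list by size. All 6 BAF subunits past it by middle-exon reads and the genes set beside them were named after their values were seen. The computations were tested on simulated data. Python 3.11.15, numpy 2.4.6, pandas 2.3.3 and matplotlib 3.10.9 were used. Some items are not reported here.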

Additional observations from a re-analysis of the deposited data

How the results depend on the processing

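The count of exons with PSI higher by 5 points stayed within 1.5 times of 7 under the alternatives run. The count of lower exons, 8, became 5 by junction PSI, 2 with the cassette class alone and 5 with only exons that had a skipping read. Of 107 values of the 15 exons under other settings, 100 kept their direction and 4, all by junction PSI, were 0. Many of the 107 say nothing on direction. A read minimum of 10 or 50, the threshold of 10 points and the skipping-read filter only repeated the main value. Without the model's correction the Wiz exon of 101 nt moved from 76.1 to 7.1 points and the Mef2a exon of 138 nt from -20.6 to -6. The Wiz exon of 73 nt turned to 16 points with the mean over its trios and to 3.1 with the cassette class alone. The Phf21a exon of 164 nt turned to 1.31 by junction PSI, which does not count use of the neighbouring 23-nt exon. For members past 1.5-fold, RefSeq and assembled isoforms gave 1 higher, and the 2 lower became 1 with gene FPKM scaled to the library median and 0 with assembled isoforms, with a 2-fold threshold and by middle-exon reads. With assembled isoforms and by middle-exon reads, Phf21a reversed to 0.32 and 0.28 and Smarca2 to 0.54 and 0.46. By gene FPKM Smarca2 reversed to 0.54 and Phf21a stayed at -0.59. The cause was not tested. Ptbp2, at 0.78, was short of 2-fold. By middle-exon reads CoREST partners had 0 higher and 0 lower, genes of histone H3 lysine 9 methylation 0 and 0 (1 higher with RefSeq isoforms scaled to the median of all genes), the MBD list 1 higher, and the Mef2 and BAF lists 0 lower. In the 100 bases upstream, 62.1% of intermediate exons held TCTT, against 64.0% of all exons, and the median of pyrimidine triplets was 22.4%, against 21.4%, so for TCTT the order of members and all exons turned. No paired analysis was possible because each condition had 1 library, and no library could be left out. With 1 library per condition the spread between cultures is unknown, exons with under about 20 junction reads allow only large differences to be seen, and PSI without a skipping read rests on coverage alone.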

Other observations

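Alternative splice sites in the same genes, which belong to other classes of the database, were also covered. Of these events in 8 members, 14 passed 20 reads in each library, and 2 differed by 5 points or more (14.3%), beside 22.5% of the 6812 such events of all genes. In Mbd5, a downstream donor that adds 690 nt to the 327-nt exon had PSI of 92.8 in the control and 70.8 in the knockdown library. Its junction reads were 22 and 9 against 1 read of the shorter form, and 15 and 11 against 6. In Phf21a, 3 nt at an acceptor at chr2:92167070-92167072 had PSI of 44.4 and 37.9, from 31 and 0 reads against 38, and 26 and 0 against 42.

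The other events differed by less. An acceptor of Ehmt1 that adds 21 nt had PSI of 30.5 and 30.6, with 250 and 172 reads of the shorter form. An acceptor of Ehmt2 that adds 30 nt stood at 15.9 and 17.6. In Kdm1a, an acceptor 12 nt upstream of an exon, at chr4:136117076-136117087, was used rarely, with PSI of 0.2 and 0.7, on 4 reads against 2096 in the control library and 12 against 1669 in the knockdown library. A Mef2a donor that adds 20 nt had PSI of 16.8 and 14.9.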
